A study of Mus musculus with 8 samples.

Results

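The carbohydrate sulfotransferases are Golgi enzymes that move sulfate from the donor PAPS onto sugars of glycosaminoglycans and glycoproteins. Chst1 sulfates galactose in keratan sulfate, and Chst2, Chst4 and Chst5 sulfate N-acetylglucosamine, in part on the glycans that selectins bind. Chst3, Chst7, Chst11, Chst12 and Chst15 sulfate chondroitin chains, and Chst8 sulfates N-acetylgalactosamine on glycoproteins such as pituitary hormones. The probes of these 10 genes were selected by their gene name on the array, 12 of the 39429 non-control probes and 10 of the 31896 gene names in all. The family was chosen after Chst1 was seen among the largest rises at 11 months, so its 11-month values, and the differences between ages that contain them, are given as a description without tests.

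RNA of brown adipose tissue of Prdm16 KO mice was hybridised against RNA of WT mice of the same age on 2-colour arrays, with 4 arrays for 11-month-old and 4 for 6-week-old mice. PRDM16 is a zinc-finger regulator that helps to set the identity of brown adipocytes. The sources used here do not say how the allele was made or in which cells the gene was lost. On 2 of the 4 arrays of each age the dyes were exchanged, and the arrays are biological replicates per the series' design text. Every value below is a log2 ratio of knockout over wild type, or a log2 normalised intensity (a level) where so named. Fitted values carry the standard error of a limma model over all 8 arrays (n = 4 arrays per age).

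Each array held 43020 non-control spots. Signal was well above background for 61.2% to 68.2% of spots in a channel, with 0 saturated spots. Of all probes, 26853 passed the filter on dim probes. Between arrays of 1 age the ratios, with the fitted dye coefficient taken out, correlated at r = 0.691 to 0.892 at 11 months. At 6 weeks they correlated at 0.453 to 0.662. These values run across probes, which are not independent replicates. The Prdm16 probe gave ratios of -0.96, -0.18, -0.76 and -0.42 at 11 months (fitted -0.58 ± 0.17, limma adjusted p = 0.0292) and -0.39, 0.063, -1.09 and -0.88 at 6 weeks (-0.58 ± 0.17, adjusted p = 0.0618). With the replicate number as a block its 6-week value had adjusted p = 0.0115. That value also passed with a dye coefficient per age (0.0333), each age alone (0.0233) and all spots in the normexp fit (0.0407). Over all 20 alternatives its limma adjusted p was 0.0115 to 0.209. The 11-month call ended without 11-month array 1, 3 or 4 (adjusted p = 0.117, 0.13 and 0.0807) and under median centring (-0.24, adjusted p = 0.307). Where this probe lies relative to the altered part of the gene is not given, so it is a weak check of the labels. The ages were run as separate batches, on separate slides and with different versions of the scanner software, so age and batch cannot be told apart.

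The Chst1 probe, on which the main result rests, lies on the plus strand at chr2:92455254-92455313 of mm9. Its first 30 of 60 bases are shown because it is the gene's 1 probe on the array.
Chst1 probe A_55_P2061620: atcttagaagtttctgattgatcttggggt

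The RefSeq promoter windows of GRCm38.p6, from 250 bases before to 50 after a start, differ widely in CG content across the family. The windows of Chst1 and of Chst8, which hold the fewest and the most, are printed with every CG in capitals. The Chst1 window is chr2:92600867-92601166 on the plus strand, and the Chst8 window is chr7:34812662-34812961 on the minus strand.
Chst1: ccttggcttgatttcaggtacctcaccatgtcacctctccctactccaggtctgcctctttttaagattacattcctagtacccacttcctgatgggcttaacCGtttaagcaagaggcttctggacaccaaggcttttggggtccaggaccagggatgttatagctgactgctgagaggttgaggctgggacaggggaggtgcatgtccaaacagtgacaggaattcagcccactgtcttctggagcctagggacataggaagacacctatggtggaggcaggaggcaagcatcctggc
Chst8: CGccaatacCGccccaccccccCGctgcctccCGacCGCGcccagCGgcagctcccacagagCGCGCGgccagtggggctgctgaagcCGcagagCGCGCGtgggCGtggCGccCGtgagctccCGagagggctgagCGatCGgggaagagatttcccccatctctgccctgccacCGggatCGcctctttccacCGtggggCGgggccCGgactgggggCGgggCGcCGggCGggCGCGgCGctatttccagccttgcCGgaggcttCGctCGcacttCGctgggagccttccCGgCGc
Chst1 held 1 CG, at the 5.43 percentile of 32851 windows, whose median was 7. Chst8 held 38 CG. The 10 windows of the other members (Chst15 has 2) ranged from 5 to 38 CG, and 9 of them lay above the median of all windows. The annotated Chst1 gene begins at 92599632, upstream of its window, so the window does not hold its most upstream start. Both strands were searched for 8 short motifs, chosen after the data were seen. The GC box GGGCGG stood in a window of 8 of the 10 members, all but Chst1 and Chst4, against 35.7% of all windows. In Chst1 the C/EBP-type site TTGCNNAA matched once, on the minus strand, and 10.8% of all windows hold a match. CCAAT (37.4% of windows), TGACG (20.8%), AGGTCA (16.3%), TATAAA (13.6%), CACGTG (7.15%) and an EBF-type site (0.904%) had no match in the Chst1 window. Neither a match nor its absence shows binding of a factor.

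Chst1, the keratan sulfate galactose sulfotransferase, was higher in knockout brown fat at both ages. At 11 months its levels were 15.74, 15.83, 15.85 and 16.09 in knockout tissue on arrays 1 to 4, against 11.34, 11.21, 11.34 and 11.56 in wild-type tissue. All knockout levels lay above all wild-type levels, and the ratios of 4.4, 4.63, 4.51 and 4.53 were alike on all 4 arrays. How many of all probes have groups apart in this way was not counted, here and for the probes below. The fitted 11-month value was 4.51 ± 0.085, 22.9-fold higher in knockout tissue, and ranked 2 from the top of 26853 probes, against rank 229 at 6 weeks. At 6 weeks its levels were 13.25, 13.04, 13.1 and 12.88 in knockout tissue, against 12.19, 12.15, 11.6 and 11.56 in wild-type tissue. The groups again did not overlap, and the ratios were 1.05, 0.89, 1.5 and 1.33. The fitted 6-week value was 1.19 ± 0.085, 2.29-fold higher (limma adjusted p = 0.000495, higher on 4 of 4 arrays). The 11-month value exceeded the 6-week value by 3.32 ± 0.12. Knockout levels averaged 15.88 ± 0.15 at 11 months and 13.07 ± 0.15 at 6 weeks, while wild-type levels averaged 11.36 ± 0.15 and 11.88 ± 0.34 (SD, n = 4 each). Levels of the 2 ages come from separate batches, and no difference between them was tested.

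**Figure D1:**
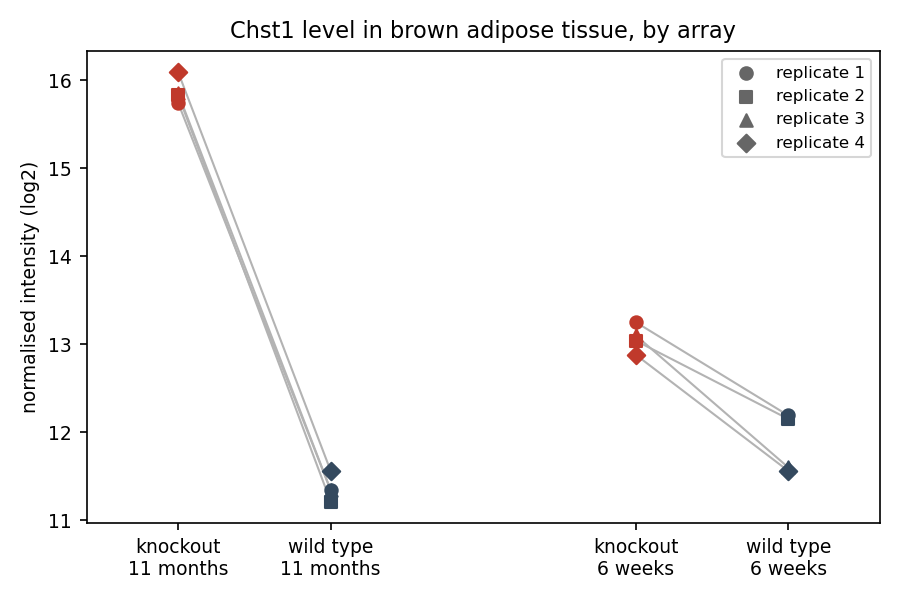
Log2 normalised intensity of the Chst1 probe (vertical axis) in knockout and wild-type brown adipose tissue at 11 months and 6 weeks. Each point is 1 channel of 1 array and grey lines join the channels of an array. Knockout levels span 15.74 to 16.09 at 11 months and 12.88 to 13.25 at 6 weeks, all above the wild-type levels of the same age.

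The members of the N-acetylglucosamine group, Chst2, Chst4 and Chst5, were near or below the detection limit. Chst4, whose enzyme is known from high endothelial venules, and Chst5, known from intestine and, in mouse, cornea, were not well above background in any of the 16 channel measurements, nor was 1 of the 2 Chst2 probes. No fold is given for these probes. The other Chst2 probe was well above background on 1 knockout and 1 wild-type channel at 11 months and on 3 knockout and 1 wild-type channels at 6 weeks. Its fitted values were 0.1 ± 0.088 at 11 months and 0.033 ± 0.088 at 6 weeks (adjusted p = 0.835), against 0.6 and 0.23 by the scanner's log ratio.

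Of the 9 member probes (8 genes) that passed the filter, 4 would be counted at an adjusted p below 0.05 at 11 months, where 40.0% of all probes were (20.7% higher and 19.3% lower in knockout). Because the family was chosen on that contrast, this count is a description and nothing is read from it. At 6 weeks Chst1 was called and the other 8 were not (3 of the 9 had an unadjusted p below 0.05), against 14.7% of all probes called (8.59% higher and 6.13% lower). The median of the 9 fitted values was 0.059 at 11 months, against 0.014 for all probes, and -0.092 at 6 weeks, against 0.0013.

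Among the chondroitin sulfotransferases, Chst7 and Chst12 had higher values in 11-month knockout tissue on every array. Chst7 levels at 11 months were 8.57, 8.49, 8.53 and 9.02 in knockout tissue, against 8.13, 7.98, 8 and 8.13 in wild-type tissue. The groups did not overlap, a trait not counted over all probes, and the fitted value was 0.59 ± 0.13, or 1.51-fold. The Chst5 probe, though not above background, had groups apart too at 6 weeks (6.22 to 6.27 in knockout and 6.13 to 6.2 in wild-type tissue). At 6 weeks Chst7 ratios of -0.6, -0.21, -0.39 and 0.19 lay mostly on the other side of 0, with overlapping levels and a fitted value of -0.25 ± 0.13 (adjusted p = 0.23). The 11-month value of Chst7 exceeded its 6-week value by 0.85 ± 0.18, the next largest positive difference of the family after Chst1.

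Chst12, which sulfates chondroitin at the same position of N-acetylgalactosamine as Chst11, had levels of 9.77, 9.55, 10.83 and 10.28 in 11-month knockout tissue, against 9.41, 9.04, 9.69 and 9.44 in wild-type tissue. The levels overlapped between groups, yet knockout was the higher channel on 4 of 4 arrays, with a fitted value of 0.71 ± 0.13 (1.64-fold). At 6 weeks the ratio was 1.08 on array 1 and 0.17, -0.043 and 0.054 on arrays 2 to 4, so that 1 array carried most of the fitted 0.32 ± 0.13 (adjusted p = 0.152), and without it the value was 0.13. Chst11 had its lower fitted value at 11 months. Its ratios were 0.2, -0.38, -0.77 and 0.13 at 11 months (-0.21 ± 0.18) and -0.24, 0.56, 0.52 and 0.71 at 6 weeks (0.39 ± 0.18, adjusted p = 0.192), with overlapping levels at both ages. With each array centred on its median in place of loess, the 11-month Chst11 value was 0.065, and without 11-month array 3 it was -0.049.

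Chst3, a chondroitin sulfotransferase of the same specificity as Chst7, had ratios between -0.37 and 0.2 at 11 months (-0.17 ± 0.094) and between -0.24 and 0.045 at 6 weeks (-0.092 ± 0.094, adjusted p = 0.556). Chst15, which adds a further sulfate to make highly sulfated chondroitin, was read by 2 probes. Probe A_51_P465128 ranged over -0.38 to 0.68 at 11 months (-0.0042 ± 0.25, and 0.36 under median centring) and -1.07 to 0.35 at 6 weeks (-0.19 ± 0.25, adjusted p = 0.658). Probe A_55_P2137596 ranged over -0.12 to 0.29 at 11 months (0.059 ± 0.14) and -0.61 to 0.22 at 6 weeks (-0.12 ± 0.14, adjusted p = 0.591). Neither probe passed the test at 6 weeks, and on both the lowest 6-week ratio was that of array 1.

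Chst8, the glycoprotein-hormone sulfotransferase, had negative fitted values at both ages. At 11 months the ratios were -1.7 and -0.88 on the arrays with knockout RNA in Cy5, and 0.057 and 0.06 on those with knockout RNA in Cy3 (fitted -0.62 ± 0.16). That value was -0.37 without 11-month array 1 and -0.36 under median centring. At 6 weeks they were -0.25, -0.14, -0.87 and -0.57, all below 0, with levels averaging 7.27 ± 0.21 in knockout and 7.73 ± 0.32 in wild-type tissue (SD, n = 4). The fitted 6-week value of -0.46 ± 0.16 did not pass (adjusted p = 0.0943), and with the replicate number as a block it did (adjusted p = 0.0433). At 6 weeks too, the arrays with knockout RNA in Cy5 gave the lower ratios. Each age held both dye orientations equally, so the probe's dye coefficient of -0.47 (adjusted p = 0.062) does not enter its fitted values. With that coefficient taken out, the ratios were -1.23, -0.42, -0.41 and -0.41 at 11 months and -0.72, -0.61, -0.41 and -0.1 at 6 weeks, below 0 on all 8 arrays.

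**Figure D2:**
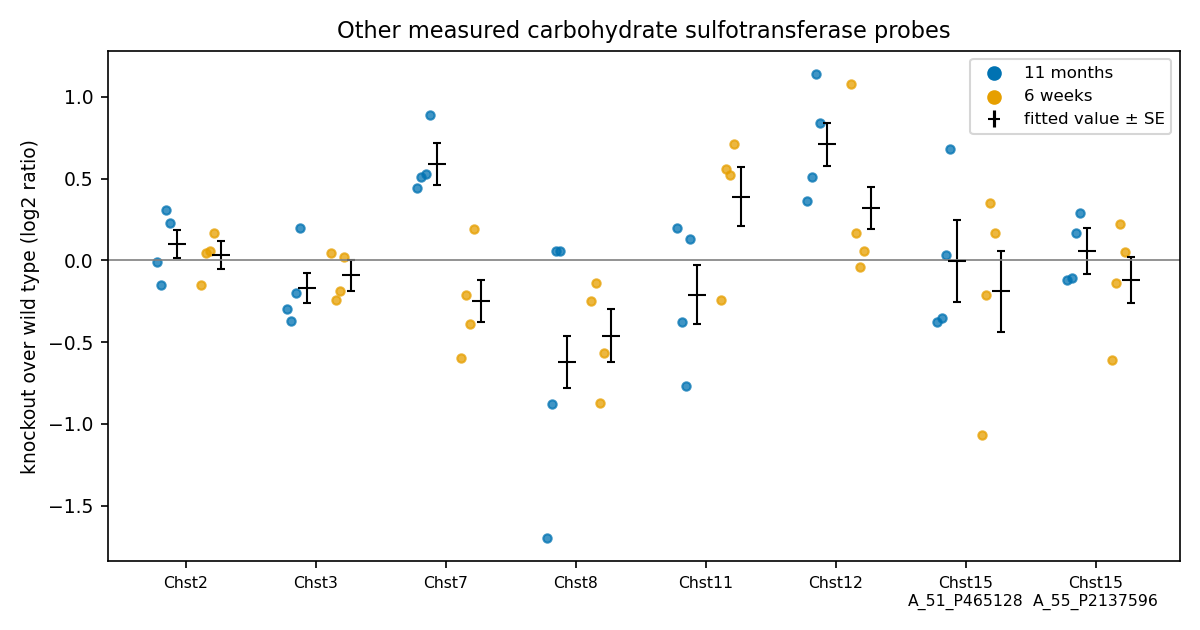
Log2 ratio of knockout over wild type (vertical axis) for the 8 other measured member probes, 4 arrays at 11 months (blue) and 4 at 6 weeks (orange), with the fitted value and standard error in black. Chst7 and Chst12 lie above 0 on all 11-month arrays, and the 11-month Chst8 ratios fall into a low pair and a pair near 0.

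By the smallest root mean square difference over the 8 dye-adjusted ratios, among 14801 genes with a symbol, the genes nearest to Chst1 were Cfd (0.499), Cyp2e1 (0.64), Slc6a13 (0.676), Wfdc21 (0.711) and Psat1 (0.741). Cfd encodes adipsin, a serine protease secreted by adipocytes, and stood at 4.47 ± 0.27 at 11 months and 1.4 ± 0.27 at 6 weeks. Before dye adjustment its ratios were 2.94 to 5.29 at 11 months and 0.43, 0.37, 2.87 and 1.91 at 6 weeks. Cyp2e1, a cytochrome P450, stood at 4.07 ± 0.23 at 11 months and 1.74 ± 0.23 at 6 weeks. Its ratios before dye adjustment were 3.25 to 4.66 at 11 months and 0.021, 0.99, 3.16 and 2.79 at 6 weeks. Psat1, a serine synthesis enzyme, had ratios of 3.73 to 4.33 at 11 months and 1.61 to 2.36 at 6 weeks. Slc6a13, a GABA and taurine transporter, ranged over 3.45 to 4.73 at 11 months and 0.96 to 2.36 at 6 weeks, and Wfdc21 over 2.72 to 4.92 and 0.3 to 1.86. Dye coefficients were 0.84 for Cfd, 0.89 for Cyp2e1, -0.65 for Wfdc21, 0.073 for Slc6a13 and 0.043 for Psat1, against 0.11 for Chst1. The likeness therefore holds for dye-adjusted ratios. With no dye coefficient the 6-week values of Cfd, Cyp2e1 and Wfdc21 did not pass (limma adjusted p = 0.1, 0.0549 and 0.128). The likeness is a description of these 8 arrays, on which the genes share the same RNA.

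**Figure D3:**
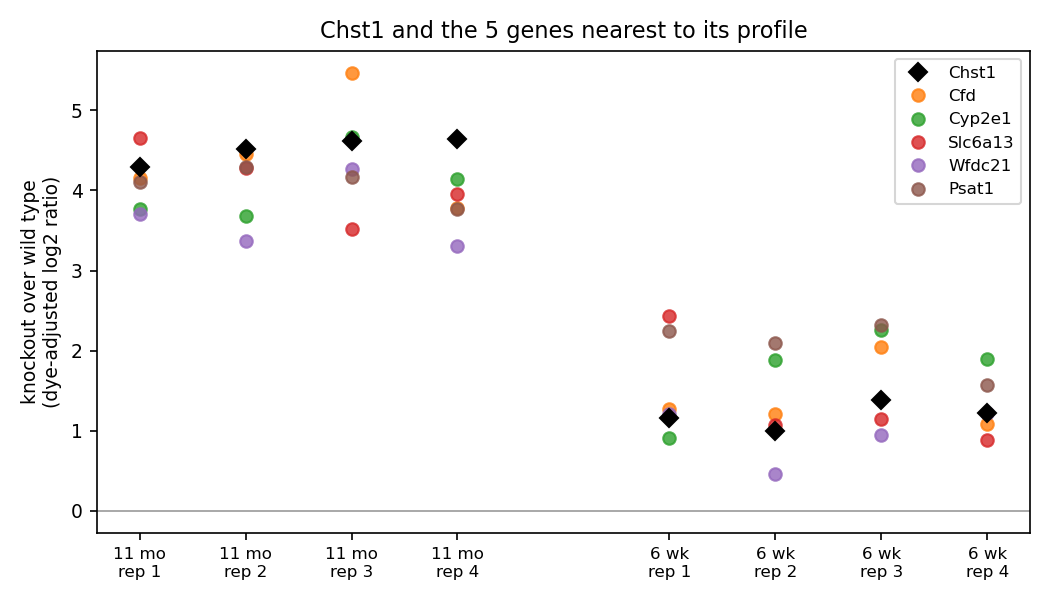
Dye-adjusted log2 ratio of knockout over wild type (vertical axis) of Chst1 (black diamonds) and its 5 nearest genes (circles) on each of the 8 arrays (horizontal axis). All 6 genes lie above 0 on every array and higher on each 11-month array than on any 6-week array.

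Among the genes that supply sulfate to these enzymes, Papss2 and Slc13a4 rose at 11 months. Of 10 measured genes of sulfate donor synthesis and transport, 4 were higher at 11 months with 6 not past the test, and 1 was higher and 2 were lower at 6 weeks (list medians 0.1 and 0.11). Over all probes, 40.0% were called at 11 months and 14.7% at 6 weeks, the shares against which the counts of this and the following lists stand. Papss2, a synthase of PAPS, had ratios of 1.94, 2.1, 1.32 and 1.41 at 11 months, against which its 6-week ratios were -0.95, -1, 0.17 and 0.13. It was 1.69 ± 0.08 at 11 months (adjusted p = 1.8e-05) and -0.41 ± 0.08 at 6 weeks (adjusted p = 0.017), and the ages differed by 2.1 ± 0.11 (adjusted p = 0.000488). The 6-week call for Papss2 was lost under median centring (-0.19, adjusted p = 0.105) and with no dye coefficient (adjusted p = 0.301). It was also lost without 6-week array 1 (adjusted p = 0.0874) or 2 (0.0712). Its 6-week ratios lay below 0 only on the arrays with knockout RNA in Cy3, and its dye coefficient was 0.44 (limma adjusted p = 0.0108). Slc13a4, a sodium-coupled sulfate transporter, rose at 11 months to ratios of 2.51 to 3.12 (2.86 ± 0.21, adjusted p = 7.8e-05), and its 6-week value was 1.11 ± 0.21 (adjusted p = 0.0152, and 0.0626 without 6-week array 3). Papss1, the other PAPS synthase, was 0.58 ± 0.066 at 11 months (adjusted p = 0.000449; 0.96 under median centring) and 0.17 ± 0.066 at 6 weeks (adjusted p = 0.12; 0.35 with adjusted p = 0.0429 under median centring). The difference between ages passed for 3 of the 10 genes, all higher at 11 months, against 20.4% of all probes (9.33% higher and 11.1% lower).

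In the group that builds the linkage region and chondroitin or dermatan chains, 8 of 13 genes were higher and 1 lower at 11 months, and 2 were higher at 6 weeks with 11 not past the test, with list medians of 0.3 and 0.063. The 11-month calls were 4, each higher, without 11-month array 3. Chpf, the chondroitin polymerising factor, had ratios of 1.42, 1.22, 1.33 and 0.92 at 11 months, all above its 6-week ratios of -0.08 to 0.38. Its fitted values were 1.22 ± 0.11 at 11 months (adjusted p = 0.000153) and 0.16 ± 0.11 at 6 weeks (adjusted p = 0.355), a difference of 1.06 ± 0.15 (adjusted p = 0.00472). Dse, the epimerase that turns chondroitin into dermatan sulfate, was 0.78 ± 0.084 at 11 months (adjusted p = 0.000369), and 1.67 by the scanner's log ratio. Xylt2, which starts the chains on core proteins, was 0.49 ± 0.076 (adjusted p = 0.00181), with 0.88 under median centring and 0.28 as the mean of its probes.

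Other glycosaminoglycan sulfotransferases went in both directions, with 2 higher and 2 lower of 11 at 11 months and 2 higher and 1 lower at 6 weeks, list medians 0.029 and -0.011. Hs3st6, a heparan sulfate sulfotransferase, had ratios of 1.86, 1.73, 0.97 and -0.24 at 11 months (1.08 ± 0.2, adjusted p = 0.00436; 1.63 by the scanner's log ratio) and 0.95, 1.45, 2.17 and 1.74 at 6 weeks (1.58 ± 0.2, adjusted p = 0.00418). Chst14, the dermatan sulfotransferase, was 0.66 ± 0.074 at 11 months (adjusted p = 0.00043). Ndst1, which starts sulfation of heparan chains, was -0.83 ± 0.11 at 11 months (adjusted p = 0.000841), with -0.46 under median centring and -0.55 as the mean of its probes. The difference between ages passed for 0 of the 11 in limma (4 at an unadjusted p below 0.05).

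Genes of keratan sulfate and sulfated selectin-ligand synthesis, the pathway in which Chst1 acts, had calls in both directions at 11 months. Of 10 measured, 2 were higher and 3 lower at 11 months, and 2 were lower at 6 weeks with 8 not past the test, list medians 0.051 and -0.076. Fut8, which adds the core fucose of N-glycans, fell to ratios of -1.06 to -0.47 at 11 months (-0.72 ± 0.067, adjusted p = 0.000209; -0.36 under median centring) and -0.81 to -0.29 at 6 weeks (-0.57 ± 0.067, adjusted p = 0.00319). St3gal4, a sialyltransferase, was 0.79 ± 0.16 at 11 months (adjusted p = 0.00626), and B4galt4, which adds galactose to sulfated N-acetylglucosamine, was -0.47 ± 0.1 (adjusted p = 0.007, and -0.13 with adjusted p = 0.316 under median centring). Of the 4 measured proteoglycans of the type that can carry keratan sulfate, Lum, lumican, passed at 11 months and 0 passed in limma at 6 weeks (1 at an unadjusted p below 0.05). Lum had ratios of 0.51, 0.47, 3.1 and 0.38 at 11 months, so 1 array carried its 1.11 ± 0.38 (adjusted p = 0.0477), and without that array the value was 0.49 (adjusted p = 0.0491). The call ended without any single 6-week array or 11-month array 1 or 2 (highest adjusted p = 0.106). It also ended when dim probes were kept (adjusted p = 0.0588), by the scanner's log ratio (0.0538), with no dye coefficient (0.0642), with a dye coefficient per age (0.0539) and with the 11-month arrays fitted alone (0.118).

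Of 11 core proteins of chondroitin or dermatan sulfate proteoglycans, 4 were higher and 1 lower at 11 months, and 1 was higher and 1 lower at 6 weeks, list medians 0.16 and -0.03. Ncan, neurocan, had a value of 0.36 ± 0.2 at 11 months (adjusted p = 0.197; 0.59 with adjusted p = 0.0474 under median centring), and at 6 weeks ratios of 3.12, 1.9, 2.57 and 2.85 (2.61 ± 0.2, adjusted p = 0.000694). Thbd, thrombomodulin, rose at 11 months by 1.11 ± 0.15 (adjusted p = 0.000961). Its 6-week value of -0.59 ± 0.15 passed (adjusted p = 0.0394) but not with the replicate number as a block (adjusted p = 0.0743), under median centring (-0.39, adjusted p = 0.137) or without any single 6-week array or 11-month array 1 or 2 (highest adjusted p = 0.141). Cd44, the hyaluronan receptor, was 0.69 ± 0.079 at 11 months (adjusted p = 0.000439). Of the 3 measured genes of selectin-ligand scaffolds, 1 was higher at 11 months, Cd34 at 0.94 ± 0.17 (adjusted p = 0.00365), and 0 passed in limma at 6 weeks (1 at an unadjusted p below 0.05), with list medians of -0.039 and -0.17.

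Of 18 genes of sulfatases, sulfatase-modifying factors and lysosomal glycosaminoglycan breakdown, 8 were higher and 2 lower at 11 months (list median 0.22). At 6 weeks 3 were higher and 1 lower (list median 0.043). Without 11-month array 3 the 11-month counts were 5 higher and 2 lower. Sulf2, which removes sulfate from heparan chains outside the cell, had ratios of 2.37, 2.13, 1.02 and 1.92 at 11 months (1.86 ± 0.13, adjusted p = 7.6e-05). Naglu, which acts on heparan sulfate, was 1.01 ± 0.12 at 11 months (adjusted p = 0.000466). Arsa, arylsulfatase A, was lower at both ages, with fitted values of -0.56 ± 0.067 at 11 months (adjusted p = 0.00053) and -0.39 ± 0.067 at 6 weeks (adjusted p = 0.0114, and 0.0621 without 6-week array 1). Under median centring neither Arsa value passed (-0.17, adjusted p = 0.0849, at 11 months and -0.16, adjusted p = 0.172, at 6 weeks).

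**Figure D4:**
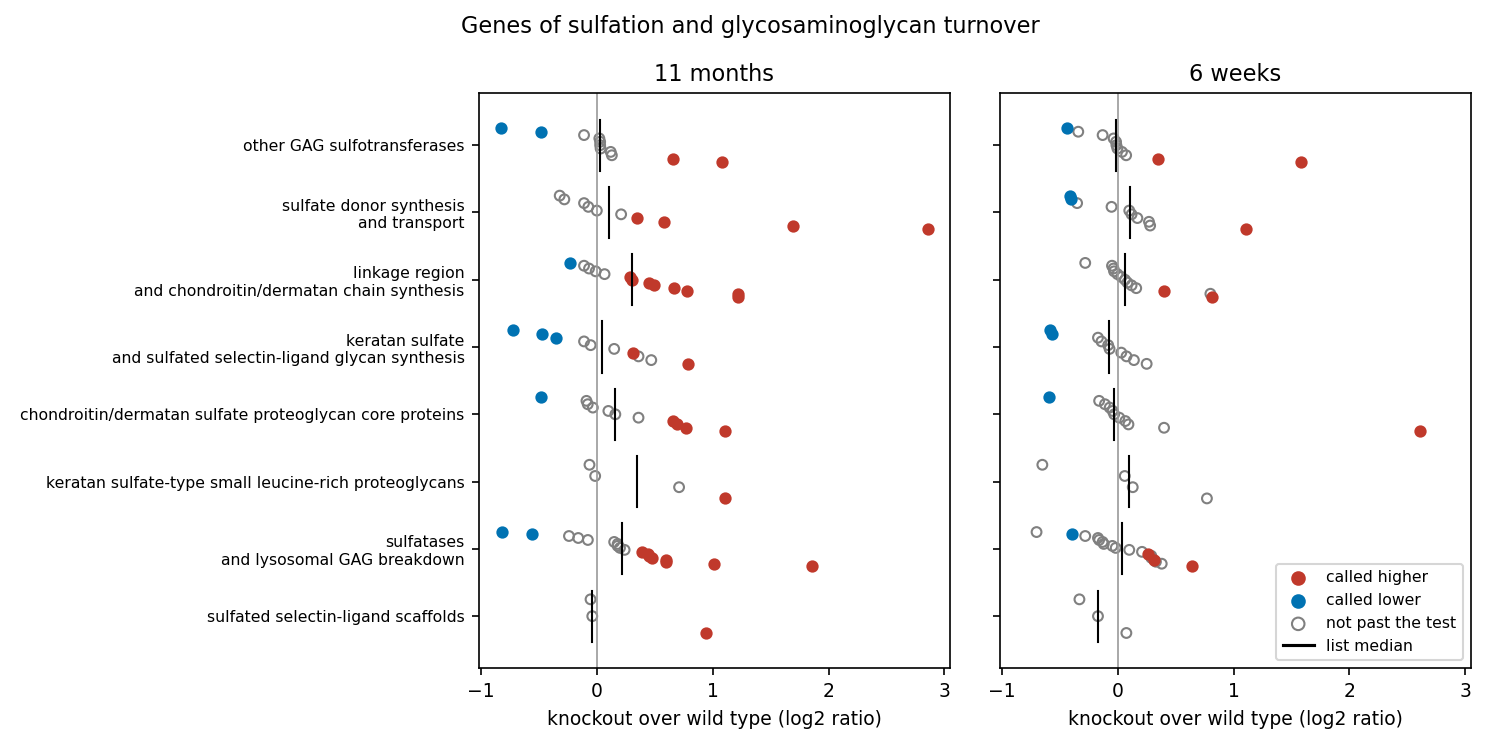
Log2 ratio of knockout over wild type (horizontal axis) for the measured genes of 8 lists at 11 months (left) and 6 weeks (right). Filled points passed at an adjusted p below 0.05, open points did not, and the bar is the list median. The sulfate donor list reaches 2.86 at 11 months (Slc13a4), and the list of keratan sulfate and selectin-ligand synthesis has points on both sides of 0.

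Marker genes of several cell types moved in the same contrasts. Adipocyte markers were higher for 6 of 6 genes at 11 months and 5 of 6 at 6 weeks, and Cfd, the gene nearest to Chst1, is one of them. Fabp4 had 11-month ratios of 1.24, 1.07, -0.65 and -0.066, below 0 on the arrays with knockout RNA in Cy3. Its dye coefficient was 0.72 (limma adjusted p = 0.00805). The 6-week Cfd call (limma adjusted p = 0.0161) ended without 6-week array 1, 2 or 3 (0.0678, 0.0524 and 0.0663). It also ended with no dye coefficient (0.1). The log2 of the summed level of the adipocyte markers was 19.95 to 20.45 in knockout and 17.81 to 19.02 in wild-type tissue at 11 months, and 19.48 to 19.67 and 17.95 to 19.19 at 6 weeks. Brown adipocyte markers were lower for 5 of 5 genes at 11 months, with summed levels of 15.74 to 18.41 in knockout and 20.2 to 20.65 in wild-type tissue, and 0 of 5 passed in limma at 6 weeks (1 at an unadjusted p below 0.05). Fibroblast markers were higher for 4 of 6 genes at 11 months (summed levels 15.35 to 17.5 in knockout and 14.26 to 14.77 in wild-type tissue), and macrophage markers for 7 of 8 (13.56 to 14.35 and 13.52 to 13.96). Without 11-month array 3 the counts were 4 of 6 and 5 of 8, and the macrophage list median was 0.3 in place of 0.59. Msr1, among the 7, was well above background on 3 knockout and 0 wild-type channels at 11 months. On 11-month array 3 the list medians were 2.38 for fibroblast, 1.74 for macrophage and -4.81 for brown adipocyte markers, against 0.88 to 1.03, 0.0026 to 0.58 and -2.38 to -2.12 on the other 3 arrays of that age. Chst1 was 4.51 on that array and 4.4 to 4.63 on the others, and its fitted 11-month value was 4.47 without it. The part of adipocyte and other markers in the Chst1 difference was not tested. In bulk tissue, a change in the share of a cell type and a change in RNA per cell cannot be told apart. Of 7 endothelial markers, 1 was higher at 11 months and 2 were lower at 6 weeks (list medians 0.12 and -0.28). Of 7 nerve markers, 1 was higher and 2 were lower at 11 months, and 1 was higher and 1 lower at 6 weeks (medians 0.011 and -0.1). Of 7 lymphocyte markers, 0 passed in limma at 11 months (0 also at an unadjusted p below 0.05). Skeletal muscle markers, of which 0 of 10 passed in limma at either age (0 at an unadjusted p below 0.05), had medians of 0.091, -2.76, 2.65 and -3.4 on 6-week arrays 1 to 4, while Chst1 lay between 0.89 and 1.5 on them.

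**Figure D5:**
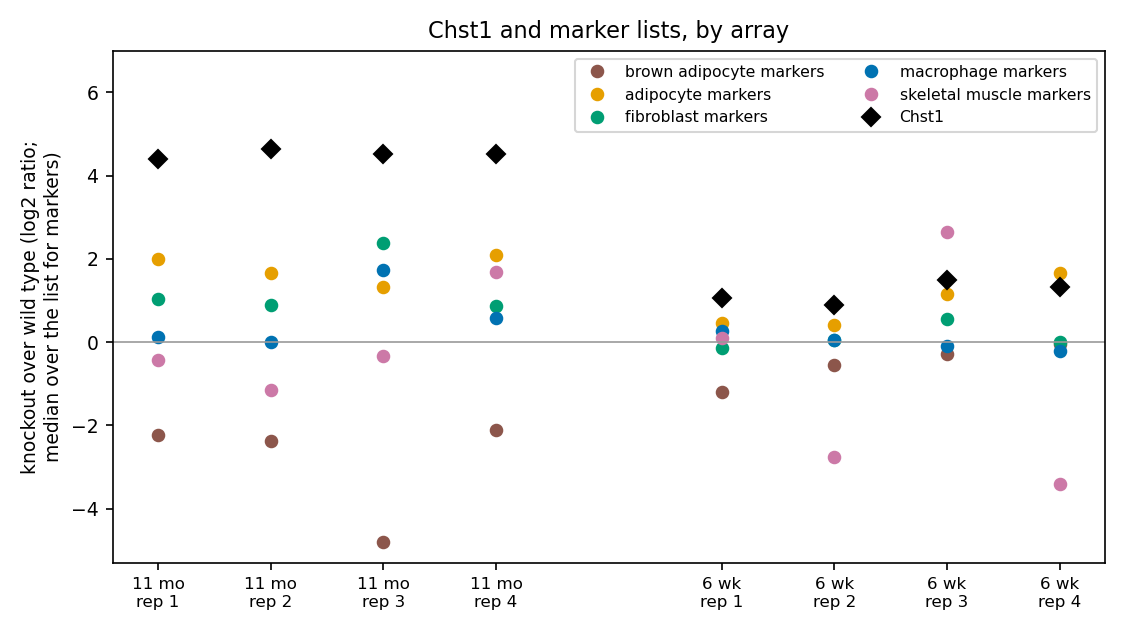
Log2 ratio of knockout over wild type (vertical axis) of Chst1 (black diamonds) and the median over each marker list (circles) on the 8 arrays (horizontal axis). Chst1 spans 4.4 to 4.63 on the 11-month arrays, while the brown adipocyte, fibroblast and macrophage medians of replicate 3 stand apart from the other replicates.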

How the data were processed

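The deposited tables hold the scanner's foreground and local background intensity per spot and channel, made with Feature Extraction 10.10.1.1 (11 months) and 10.5.1.1 (6 weeks), and a log10 ratio, per the file headers. The authors' deposited value table holds log2 ratios, made with limma per the submitters' processing notes. Its columns followed the scanner ratio (r of 0.975 to 0.99 in size) with the sign of the knockout dye. Scale and direction were read from that, and its centring is not given (column medians -0.054 to 0.083).

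Intensities were corrected by normexp (offset 50) and normalised by loess in limma 3.58.1 (R 4.3.3; pandas 2.3.3 and matplotlib 3.10.9 for sequences and figures). On 11-month array 3, 5 spots with local background over 5 times the array median upset the normexp estimate and were left out. This repair was chosen after seeing the data and changes the planned model: without it the calls were 9067, 4459 and 4717 in place of 10749, 3954 and 5482 (11 months, 6 weeks, difference). Levels come from loess and between-array Aquantile scaling. A probe was kept if at least 4 of its 16 channel measurements were well above background and each age had at least 3 arrays with a value. One model had a coefficient per age and a shared dye coefficient, which passed for 1138 probes, with Benjamini-Hochberg adjustment over all kept probes. It was tested on simulated data. Of the kept probes, 19388 took their symbol from a RefSeq table (GRCm38.p6) and 7465 kept the array's name. A gene of a list with several probes is given by its brightest.

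In the dye-adjusted ratios, deviations of same-numbered arrays of the 2 ages from the age means correlated at 0.452, 0.476, 0.277 and 0.3. The numbers were treated as pairs for the replicate block. Arrays of different number correlated too, 6-week array 2 with 11-month array 1 at 0.379 and 1 with 2 at 0.342. For 6-week array 3 with 11-month array 4 the value was 0.341, and for 4 with 3 it was 0.154. These values do not show that the arrays are paired, and calls made with the block carry that limit. Dye orientation follows the number, and with a dye coefficient per age removed the same-numbered values were 0.09, 0.0899, 0.0185 and 0.0185. That second check was made with the blocked calls already in view.

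Members and lists were chosen with earlier results of these data known, and the lists are not complete. Named genes are Prdm16, the members, up to 4 called genes of a list and comparison with the largest change (the 2 largest where fewer than 2 were called) and the 5 genes nearest to Chst1. Not all are given. Some genes of the lists are not reported here and stay out of the list counts.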

Additional observations from a re-analysis of the deposited data

Results flagged for a closer look

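Of 114 sets of 4 arrays examined, 3 held a value far from the other 3 by Dixon's criterion, and chance gives about 1 in 20. At 11 months Lum was 3.1 on array 3 (others 0.38 to 0.51) and Slc26a1, a sulfate anion transporter, was -0.25 on array 3 (others -0.032 to -0.0067). On 11-month array 4, Hexa, a hexosaminidase subunit, was 0.12 (others 0.57 to 0.65).

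The value differed between ages in 19 of the named genes of the pathway lists and in all 5 genes nearest to Chst1. Over all probes, 20.4% were called for this difference (9.33% higher and 11.1% lower at 11 months). The named genes were picked in part for a call in this contrast, and the 5 for their likeness to Chst1. Neither count is therefore a result about these genes. The 11-month minus 6-week values were 2.1 for Papss2, 1.75 for Slc13a4 and 0.41 for Papss1 in the sulfate donor list. In chain synthesis they were 1.06 for Chpf, 0.73 for Csgalnact1, 0.52 for Xylt2 and -0.51 for Chpf2 (with the replicate block adjusted p = 0.0614). In selectin-ligand synthesis they were 0.86 for St3gal4 and 0.48 for B3gnt3. Among core proteins they were 1.7 for Thbd, 0.85 for Cd44, -0.89 for Cspg5 and -2.25 for Ncan. Among sulfatases and breakdown enzymes they were 1.22 for Sulf2, 0.76 for Hexa, 0.72 for Naglu, 0.57 for Glb1 and 0.49 for Gusb. Cd34 differed by 1.11. Of these 19 list calls, 11 ended when some single array was left out. The Glb1 call ended without any of the 8 arrays (highest adjusted p = 0.0941), and the Chpf2 call without any except 6-week array 1 (0.0914). The Csgalnact1 call ended without 6-week array 1, 2 or 3 or 11-month array 2, 3 or 4 (0.0715), and the St3gal4 call without 6-week array 1, 2 or 4 or 11-month array 1, 3 or 4 (0.0952). Papss1 lost it without 6-week array 2, 3 or 4 or 11-month array 1 or 2 (0.0674), and Gusb without 6-week array 1, 2 or 3 or 11-month array 1 or 3 (0.0702). Naglu lost it without 6-week array 3 or 4 or 11-month array 2 or 3 (0.063), and Hexa without 6-week array 1 or 2 or 11-month array 4 (0.0876). Cd34 lost it without 6-week array 2 or 4 (0.0576), Cspg5 without 6-week array 1 (0.0503) and Xylt2 without 11-month array 2 (0.0512). By the scanner's log ratio the calls for B3gnt3 (adjusted p = 0.088), Glb1 (0.0589) and Chpf2 (0.0511) ended. The Chpf2 difference was -0.3 under median centring (adjusted p = 0.343) and -0.27 as the mean of its probes (0.186), and the Xylt2 difference was 0.36 as the mean of its probes (0.0603). With no dye coefficient the calls for Papss1, Csgalnact1, Chpf2, B3gnt3, Hexa and Cyp2e1 ended (adjusted p = 0.134, 0.0553, 0.305, 0.146, 0.101 and 0.0538). The Glb1 call ended when dim probes were kept (0.0524), and the B3gnt3 call with the bright-background spots left in (0.107). The genes nearest to Chst1 differed by 3.07 (Cfd), 2.72 (Slc6a13), 2.7 (Wfdc21), 2.33 (Cyp2e1) and 2.02 (Psat1). Age and batch cannot be told apart in these values.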

How the results depend on the processing

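The 6-week Chst1 value stayed between 1.11 and 1.42 (adjusted p = 0.00038 to 0.00501) under all 20 alternatives, and 1.11 to 1.27 without single arrays. The member probes called at 6 weeks were 1 in the model and 1 to 2 without single arrays. They were 2, with Chst8 joining Chst1, under the scanner's log ratio (Chst8 -0.74, adjusted p = 0.0485), a dye coefficient per age (0.0472), the replicate block (0.0433), each age alone (0.0209) and without 11-month array 1 (0.0232). Over all alternatives the adjusted p of Chst8 was 0.0209 to 0.346. The strict filter dropped Chst2, and each age alone gives no difference between ages.

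Median centring moved the median of all probes to 0.17, 0.071 and 0.083 (11 months, 6 weeks, difference), against 0.014, 0.0013 and 0.0088. It gave 76.7%, 79.1% and 72.8% of calls as higher, against 51.8%, 58.3% and 45.7%. Under it Chst2 turned to -0.059 at 11 months and -0.017 at 6 weeks, and Chst11 to 0.065 and Chst15 (A_51_P465128) to 0.36 at 11 months. Genes uncalled in the model that changed sign under it were Hs6st1 (0.08), Prelp (0.25) and Podxl (0.14) at 11 months, and Hs2st1 (0.068), Xylt2 (0.19), Dsel (0.0087), B4galt4 (0.064), St3gal4 (0.026), Dcn (0.19), Cspg4 (0.2), Glb1 (0.039) and Cd34 (0.058) at 6 weeks. Prelp was 0.0024 with the bright-background spots left in. The cause was not tested.

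Without single arrays the calls ranged over 7873 to 10616 at 11 months, 1174 to 4902 at 6 weeks and 2839 to 5196 for the difference. They were 1174, 1809, 1478 and 1961 at 6 weeks without 6-week arrays 1 to 4, and for the difference 3632, 2839 and 3430 without 6-week array 1, 2 or 4 and 3114 without 11-month array 2. Of 86 calls on named genes, 37 ended without at least 1 array, where fewer samples remain. Values that changed sign ranged over -0.041 to 0.12 (Chst2), -0.39 to 0.14 and -0.24 to 0.059 (Chst15), -0.087 to 0.026 (Xylt2), -0.12 to 0.076 (Dsel), -0.18 to 0.11 (St3gal4), -0.24 to 0.056 (Dcn), -0.21 to 0.071 (Cspg4), -0.22 to 0.018 (Glb1) and -0.077 to 0.46 (Ogn) at 6 weeks, and -0.34 to 0.18 (Prelp), -0.14 to 0.043 (Podxl) and -0.3 to 0.16 and -0.05 to 0.15 (both Chst15 probes) at 11 months. The replicate block ended the calls for Chpf2 at 11 months and in the difference and for Thbd at 6 weeks, and made calls for Prdm16, Chst8 and Podxl at 6 weeks and Ogn at 11 months (adjusted p = 0.0115, 0.0433, 0.0355 and 0.00754). It changed no other call on a named gene. The number of arrays and signal over background limit all values.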
